A study of Mus musculus with 2 samples.

Results

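The BCL2 family, the set of proteins that decides whether the outer membrane of mitochondria stays closed or opens during apoptosis, was followed in cultures labelled as mouse neonatal cardiomyocytes. The members were 10 genes chosen by symbol, out of 10982 genes with a value. All 10 had a value in both libraries. RNA sequencing had been done on 2 libraries, 1 per group, with source tissue given as heart. The cells of the first group had been transfected with a negative control, and those of the second with an antagomir against FERPIR, a short RNA of the piRNA class. An antagomir is a modified oligonucleotide that pairs with a small RNA and blocks it. Both samples also carry the treatment label PBS. Strain, day of culture, dose and the number of animals or cultures behind each library are not given in the labels. Expression was given as FPKM, fragment counts divided by the length of the transcript and the size of the library, so levels can be compared between genes per length. The comparison asked how gene expression differed after FERPIR knockdown. With 1 library per group no difference has a replicate check, no test was possible, and "higher" and "lower" describe these 2 libraries.

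Members of the family fall into 3 classes. Restraining proteins (BCL2, BCL-XL, BCL-W and MCL1) hold the effectors BAX and BAK in check, whereas BH3-only proteins (BAD, BID, PUMA, BIM) bind the restrainers or activate the effectors directly. Once active, BAX and BAK form pores through which cytochrome c leaves the mitochondrion, joins APAF1 and starts the caspase cascade. Much of this control acts on the proteins, by phosphorylation of BAD, cleavage of BID and rapid turnover of MCL1, and is not seen in RNA. In heart muscle the family is known chiefly for its part in cell loss after ischemia and reperfusion.

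The cell label was checked against markers first. Of 17 cardiomyocyte markers 3 had a value, and 14, among them Myh6, Actc1 and Ryr2, had no value, which is not read as low expression. No row had less than 0.5005 FPKM in its higher library. Whether genes without a value fell under such a floor or were left out otherwise cannot be told. The summed level of this list was 12.7 FPKM in control cells and 32.3 FPKM in antagomir cells. The troponin genes Tnnt2 and Tnnc1 had 1.48 and 8.19 FPKM and 4.39 and 18.9 FPKM, and the natriuretic peptide gene Nppb had 6.86 and 5.28 FPKM. Of 12 fibroblast markers 8 had a value, with sums of 638.5 and 467.8 FPKM, and of 8 smooth muscle and pericyte markers 6, with sums of 1336 and 897.8 FPKM, nearly all from Acta2. The median log2 ratio of these 6 was 0.20, with Tagln at 18.2 and 37.8 FPKM, so that the sum and the median differ in sign. Macrophage markers had values for 2 of 11 genes (sums of 16.9 and 21.98 FPKM), erythroid markers for 2 of 6 (14.4 and 20.8 FPKM) and endothelial markers for none of 10. No marker with a value was listed at 0. These values do not show the labelled cell type by its defining markers, and the part that a different mix of cells has in the differences below was not tested. In a bulk library, fewer cells of a type and less RNA per cell cannot be told apart. All values together summed to 295404 FPKM in control cells and 312806 FPKM in antagomir cells. The number of reads is unknown, so counting error cannot be given.

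Differences are given as log2 of (antagomir FPKM + 1) over (control FPKM + 1), and folds are on the same scale, which understates differences of low genes. Among the 9 members that reached 1 FPKM in either library, 2 were at least 1.5-fold higher in the antagomir library, Bcl2l1 and Bax, where 10.8% of 10201 such genes were. Another 2 were at least 1.5-fold lower, Bcl2l2 and Bbc3, where 13.4% of these genes were. Either way this made 4 of 9 members, beside 24.2% of all genes. Each direction held 1 gene that restrains death and 1 that promotes it. Counts of this size from 9 genes are read against those shares only as a description. The median log2 ratio of the 9 members was -0.11, beside -0.05 over all genes. Their median absolute log2 ratio was 0.54, beside 0.32 over all genes, but Bcl2 (-0.30), Mcl1 (0.13) and Bak1 (-0.11) lay nearer 0 than 0.32. The 0.32 includes low genes, whose ratios the added 1 FPKM draws toward 0. No such median was computed over genes of like level. Over genes whose higher value was 1 to 5 FPKM, 16.2% were at least 1.5-fold apart either way. At 5 to 20 FPKM it was 24.4%, and at 20 to 200 FPKM 32.6%.

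**Figure D1:**
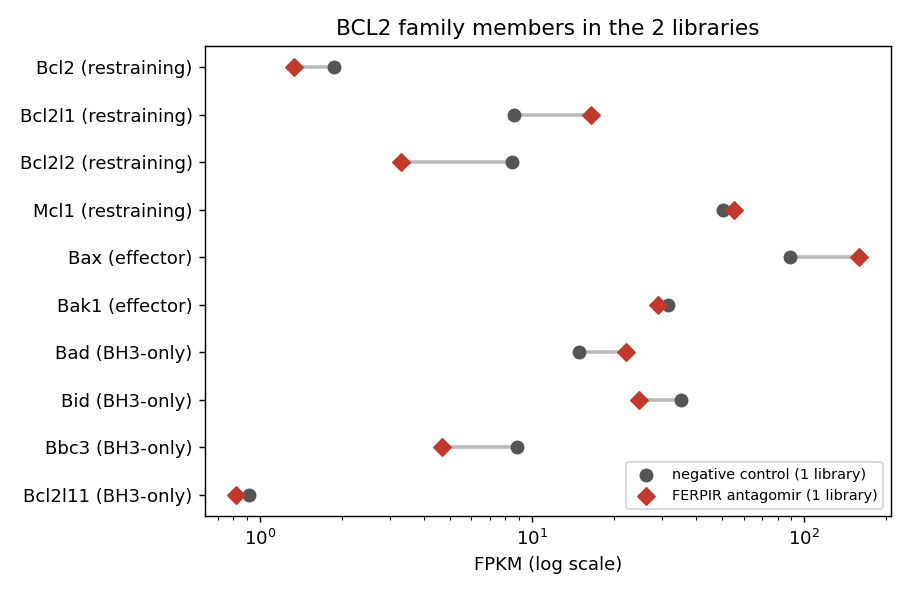
FPKM of the 10 members on a logarithmic axis, with a circle for the negative control and a diamond for the FERPIR antagomir, 1 library each. Bax is highest and Bcl2l11 lowest in both libraries, and the longest gaps on this axis are those of Bcl2l2, Bcl2l1 and Bbc3.

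The sequences directly upstream of the start sites are shown for the 4 members past the 1.5-fold limit, to set the DNA from which these genes start beside their values. Each is 250 bases, ends at the base before the RefSeq start, comes from RefSeq on build GRCm38.p6, and runs 5′ to 3′ on the strand of the gene. Of several starts the one nearest the 5′ end of the locus in the deposited table was taken. Capitals mark GC boxes, GGGCGG on either strand, the site that SP1-type factors are known to bind. Bcl2l1 is from chr2:152831729-152831978 and Bax from chr7:45466899-45467148, both on the minus strand. Bcl2l2 is from chr14:54883175-54883424 and Bbc3 from chr7:16309333-16309582, both on the plus strand.
Bcl2l1: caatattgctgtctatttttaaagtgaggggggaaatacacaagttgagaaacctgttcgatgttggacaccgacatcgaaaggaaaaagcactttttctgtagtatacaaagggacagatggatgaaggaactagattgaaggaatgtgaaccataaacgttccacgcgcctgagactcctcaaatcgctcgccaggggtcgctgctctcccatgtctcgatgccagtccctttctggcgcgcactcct
Bax: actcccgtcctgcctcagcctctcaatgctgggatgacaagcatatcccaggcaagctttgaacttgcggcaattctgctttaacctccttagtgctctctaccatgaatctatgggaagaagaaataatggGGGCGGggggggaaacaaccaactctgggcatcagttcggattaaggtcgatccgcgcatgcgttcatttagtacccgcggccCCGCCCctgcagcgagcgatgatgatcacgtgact
Bcl2l2: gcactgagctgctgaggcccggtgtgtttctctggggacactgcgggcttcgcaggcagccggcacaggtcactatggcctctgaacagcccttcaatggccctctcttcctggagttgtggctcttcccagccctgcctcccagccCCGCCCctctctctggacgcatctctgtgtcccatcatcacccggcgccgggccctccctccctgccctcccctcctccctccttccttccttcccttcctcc
Bbc3: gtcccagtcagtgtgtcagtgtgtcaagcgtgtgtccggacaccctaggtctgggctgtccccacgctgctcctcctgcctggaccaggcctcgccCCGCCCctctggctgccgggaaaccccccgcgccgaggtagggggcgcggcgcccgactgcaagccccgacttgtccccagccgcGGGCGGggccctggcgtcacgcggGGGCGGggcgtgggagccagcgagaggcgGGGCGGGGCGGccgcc
The Bcl2l1 window held no GC box and had a GC content of 47.6%, the Bax window held 2 at 54.0%, the Bcl2l2 window 1 at 66.0% and the Bbc3 window 5, overlapping matches counted, at 76.4%. The other starts of Bcl2l1 also held none. The start taken for Bbc3 lies 1190 bases downstream of the 5′ end of the deposited locus, so its window is inside that locus. Over all 10 members 8 windows held a GC box, as did 32.7% of 32851 windows of the same length. The median GC content of those windows was 52.4%, and no share was computed over windows of like GC content. The 10-letter p53 half-site, searched by its name, matched once, in Bax, as AGGCAAGCTT beginning 201 bases upstream of the start, and matched in 7.13% of all windows. Bax also held the E-box CACGTG, found in 6.02% of all windows. None of the 10 windows held the TATA box TATAAA (12.4% of all windows) or the CHOP and ATF4 element TGATGNAA (3.45%), and the CCAAT box CCAAT was in that of Bcl2l11 alone (33.8% of all windows). At starts not taken here, a window of Bad and a window of Bbc3 held CCAAT, and that of Bbc3 also held CACGTG. The matches thus depend on the start taken. All motifs were read on both strands. These are matches of letters, not measured binding. Bcl2l1 matched no motif of this list at any of its starts. The higher pair, Bcl2l1 and Bax, could therefore share none, whatever the lower pair held.

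Among the restraining members, Mcl1 was the most abundant per length. Its protein is short-lived and is required for survival of heart muscle cells. Mcl1, on chromosome 3 from 95658788 to 95663176, had 50.3 FPKM in control cells and 55.2 FPKM in antagomir cells, a log2 ratio of 0.13. It was at the level percentile of 90.1 and 91.0 among all genes, and its share of the summed restraining FPKM was 72.6% and 72.3%. This, the main part of the restraining class by RNA, was close between the libraries.

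Bcl2l1, which encodes BCL-XL and a shorter splice form that promotes death, lies on chromosome 2 from 152780668 to 152831728. It had 8.64 FPKM in control cells and 16.5 FPKM in antagomir cells, 1.82-fold higher. Of all genes reaching 1 FPKM, 95.5% had a lower log2 ratio than its 0.86. Its exons overlap no other gene in GENCODE release M21, and under each of 6 other scalings its log2 ratio lay between 0.81 and 0.94. The gene value pools its splice forms, 8 coding transcripts in that annotation, so the balance between the long and the short form was not measured.

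Bcl2l2, which encodes BCL-W, had almost the level of Bcl2l1 in the control, with 8.49 FPKM, and 3.297 FPKM in antagomir cells. It was 2.21-fold lower, the largest difference of the 10 members on this scale, although that of Bbc3 was larger with the length and GC trend removed. A 2-fold limit downward was passed by 3.79% of all genes, and 2.58% of all genes had a lower log2 ratio than its -1.14. Bcl2l2 lies on chromosome 14 from 54883377 to 54888234 and shares 594 exonic bases, 13.3% of its own, with the predicted gene Gm20521 on the same strand. Gm20521 also shares 651 exonic bases with Pabpn1, a gene for a poly(A)-binding protein, so that it spans both. It had nearly the values of Bcl2l2, 8.92 FPKM in control cells and 3.16 FPKM in antagomir cells, a log2 ratio of -1.26. Reads of the shared exons could be given to either gene, so the split between them is uncertain. With both added, 17.4 FPKM stood against 6.45 FPKM, 2.47-fold lower, so the direction did not rest on the split between these genes. Pabpn1 itself had 18.2 and 13.7 FPKM, a log2 ratio of -0.38.

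Bcl2, the gene that gave the family its name, was near the lower end, with 1.87 FPKM in control cells and 1.34 FPKM in antagomir cells. Its log2 ratio of -0.30 was within the 1.5-fold limit, and 6.09% of its exonic bases overlap an antisense RNA gene. Bcl2 lies on chromosome 1 from 106538178 to 106714274. Together the restraining members had 69.3 FPKM in control cells and 76.4 FPKM in antagomir cells. Bcl2l1 made up 12.5% of this sum in the control and 21.6% in antagomir cells, and Bcl2l2 12.2% and 4.32%. The ratio of Bcl2l1 to Bcl2l2, which does not depend on the library total, was 1.02 in control cells and 5.01 in antagomir cells. This ratio rests on the uncertain split of reads between Bcl2l2 and Gm20521, and was not computed with both added.

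**Figure D2:**
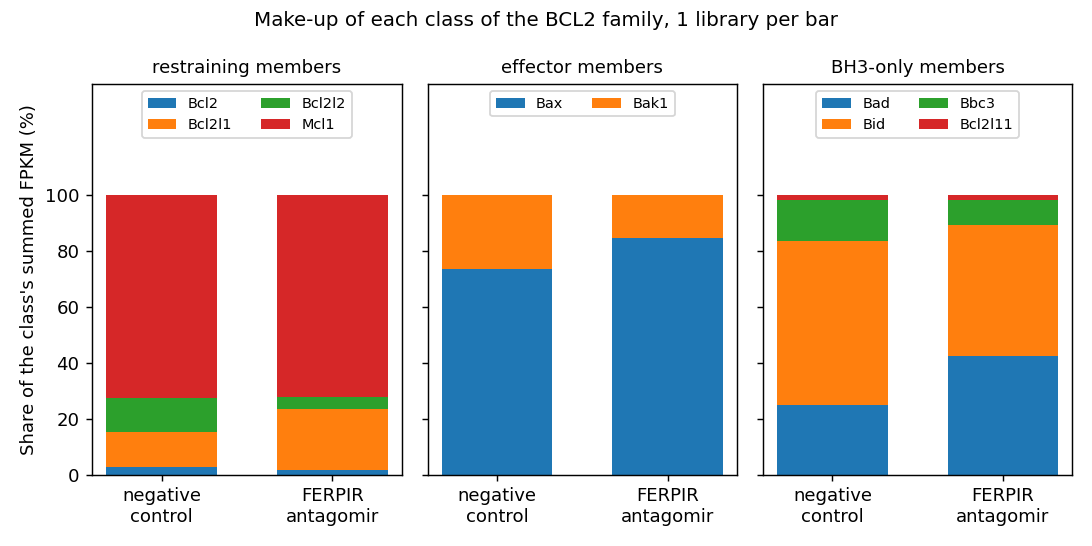
Share of each member in the summed FPKM of its class, in percent, with 1 bar per library. Mcl1 keeps a like share of the restraining class, whereas Bcl2l1 takes a larger and Bcl2l2 a smaller one, and in the BH3-only class the share of Bad is 24.9% in control cells and 42.3% in antagomir cells.

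Of the effectors, Bax was the most abundant member of the whole family in both libraries. Its protein moves from the cytosol into the outer mitochondrial membrane when activated. Bax, on chromosome 7 from 45461697 to 45466898, had 88.8 FPKM in control cells and 159.9 FPKM in antagomir cells, 1.79-fold higher with a log2 ratio of 0.84. It held 35.6% of the summed FPKM of the 10 members in the control and 50.3% in antagomir cells. Its longest annotated transcript, 1100 nucleotides, is in the shortest of 5 length groups of genes, in which the median log2 ratio was 0.26 and 25.7% of 2041 genes were at least 1.5-fold higher, beside 4.36% of 2039 genes in the longest group. Once the trend of the log2 ratio with length and GC content was taken out, Bax had a log2 ratio of 0.29, inside the 1.5-fold limit. Exons of Bax share 192 bases with the predicted gene Gm45808, for which no value was given.

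Bak1, whose protein sits in the outer membrane from the start, had 31.7 FPKM in control cells and 29.2 FPKM in antagomir cells, a log2 ratio of -0.11. Both values are close, and 25.5% of its exonic bases overlap Ggnbp1 on the opposite strand. Bak1 lies on chromosome 17 from 27019810 to 27029009. The ratio of Bax to Bak1 was 2.80 in control cells and 5.48 in antagomir cells, so the effectors' summed FPKM, 120.5 and 189.1, differed through Bax.

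The BH3-only members did not go one way. Bbc3 encodes PUMA, a p53 target that binds every restraining protein. It lies on chromosome 7 from 16308393 to 16318205, and had 8.80 FPKM in control cells and 4.66 FPKM in antagomir cells, 1.73-fold lower. Of all genes 7.20% had a lower log2 ratio than its -0.79, its exons overlap no other gene, and with the length and GC trend removed its log2 ratio was -1.25. Bbc3 was thus lower in a part of the length range where most genes were higher: in its length group, the shortest, 7.20% of genes were at least 1.5-fold lower.

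Bid encodes the protein that caspase 8 cleaves and so links death receptors to mitochondria. It lies on chromosome 6 from 120891930 to 120916853, and had 35.3 FPKM in control cells and 24.7 FPKM in antagomir cells, 1.41-fold lower. Bid lay just inside the limit and passed it as TPM, at a log2 ratio of -0.59. Its exons overlap those of Bcl2l13 on the opposite strand over 628 bases, and Bcl2l13 had a log2 ratio of -0.17. Bad, whose protein is held by 14-3-3 proteins while phosphorylated, lies on chromosome 19 from 6941861 to 6951898. It had 14.9 FPKM in control cells and 22.1 FPKM in antagomir cells, 1.45-fold higher, also just inside the limit. Bad shares 524 exonic bases with Gpr137 on the opposite strand, a gene with a log2 ratio of 0.47, and had a log2 ratio of 0.31 with the length and GC trend removed. Bcl2l11, which encodes BIM and lies on chromosome 2 from 128126038 to 128162547, was lowest of the family. It had 0.917 FPKM in control cells and 0.821 FPKM in antagomir cells, both under 1 FPKM, and was left out of the counts in FPKM with that minimum.

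Within the BH3-only class the ratio of Bad to Bid was 0.423 in control cells and 0.896 in antagomir cells, and that of Bad to Bbc3 was 1.70 and 4.75. The class summed to 59.9 FPKM in control cells and 52.3 FPKM in antagomir cells. In order of FPKM per length the control library ran Bax, Mcl1, Bid, Bak1, Bad, Bbc3, Bcl2l1, Bcl2l2, Bcl2 and Bcl2l11. In the antagomir library Bak1 stood above Bid and Bcl2l1 above Bbc3, and the other members kept their places. Bbc3, Bcl2l1 and Bcl2l2 lay within 8.49 to 8.80 FPKM in control cells and were spread from 3.297 to 16.5 FPKM in antagomir cells. The place of Bcl2l2 rests on its uncertain split with Gm20521, as both together had 17.4 and 6.45 FPKM.

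**Figure D3:**
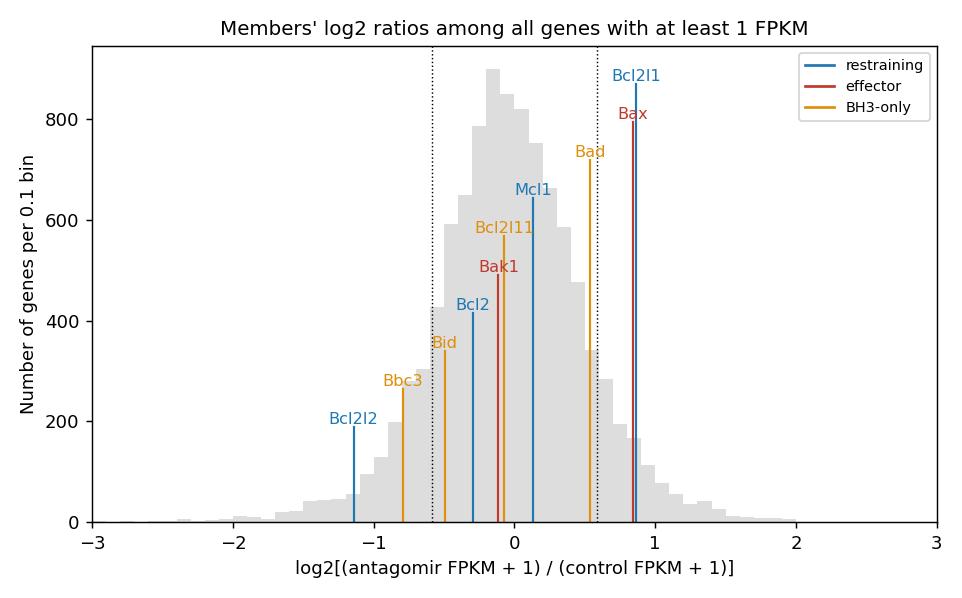
Histogram of the log2 ratio over the 10201 genes that reached 1 FPKM in either library, with the 10 members marked by class and dotted lines at 1.5-fold. Bcl2l1 and Bax lie beyond the right line and Bcl2l2 and Bbc3 beyond the left one, and 4 genes beyond 3 on either side are not drawn.

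Balances between classes depended on Bax. The summed FPKM of the restraining members over that of the 6 effector and BH3-only members was 0.384 in control cells and 0.316 in antagomir cells. Without Bax the same ratio was 0.757 in control cells and 0.937 in antagomir cells, in the opposite direction, a calculation added after the values were seen. The ratio of Bax to Bcl2, often used as an index of apoptotic readiness, was 47.4 in control cells and 119 in antagomir cells, and rests on a Bcl2 level under 2 FPKM. Against BCL-XL no such difference was seen, with a ratio of Bax to Bcl2l1 of 10.3 in control cells and 9.67 in antagomir cells. The ratio of Bax to Mcl1 was 1.77 and 2.90. Bax is in the shortest and Bcl2 in the longest of the length groups, between which log2 ratios differed over all genes. With the length and GC trend removed, the log2 ratio was 0.29 for Bax, -0.14 for Bcl2, 0.18 for Mcl1 and 0.81 for Bcl2l1. No ratio between members or classes was computed with the trend removed.

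Of 16 further genes of the family 7 had values. Bok, an effector-like relative of BAX and BAK that acts at the endoplasmic reticulum, had 23.5 FPKM in control cells and 54.4 FPKM in antagomir cells, 2.26-fold higher, past a limit that 2.88% of all genes passed upward. With the length and GC trend removed its log2 ratio went from 1.17 to 0.83. The exons of Bok overlap no other gene. The mitophagy receptors Bnip3 (84.3 and 93.1 FPKM) and Bnip3l (31.9 and 30.8 FPKM) and the autophagy protein gene Becn1 (13.7 and 12.6 FPKM) were close between the libraries. Bcl2l12 had 3.58 and 5.77 FPKM, a log2 ratio of 0.56, Bcl2l13, with 6.59 and 5.73 FPKM, has been named above, and Bmf, a BH3-only gene, had 0.215 and 0.663 FPKM. The BH3-only gene Pmaip1, which encodes NOXA, was among the 9 without a value.

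Downstream of the family, the median log2 ratio of 7 apoptosome and caspase genes was 0.47. None was 1.5-fold apart on the scale of FPKM + 1, beside 24.2% of all genes. With a pseudocount of 0.1 the low genes Casp9, Casp6 and Dffb made this 3 higher and none lower, a setting added after the values were seen. In that setting 14.1% of all genes were higher and 17.5% lower. Cycs, which encodes the cytochrome c released through BAX and BAK pores, had 74.3 FPKM in control cells and 103 FPKM in antagomir cells, 1.39-fold higher. Apaf1, the scaffold of the apoptosome, was low in both, with 1.295 and 1.17 FPKM. The initiator gene Casp9 had 1.52 and 2.58 FPKM. Casp6, at 3.44 and 5.33 FPKM, had a log2 ratio of 0.51.

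The IAP proteins bind caspases or act in cell division. Among 8 genes of these proteins and of their mitochondrial antagonists, 2 were at least 1.5-fold higher and none lower. Of all genes 10.8% were higher and 13.4% lower. The median log2 ratio of the list was -0.09. Birc5, which encodes survivin and acts in mitosis, was 2.38-fold higher, with 28.2 and 68.5 FPKM. Endog, a mitochondrial nuclease gene, had 7.29 and 17.4 FPKM, with a log2 ratio of 1.15, and of 0.55 once the length and GC trend was taken out. Htra2 had 21.02 and 16.2 FPKM and Aifm1 11.5 and 10.6 FPKM, a log2 ratio of -0.35 and -0.10. Of 11 genes of the outer membrane and the permeability transition 2 were at least 1.5-fold higher and 1 lower, beside the same shares of all genes. Their median log2 ratio was 0.17. The ADP/ATP carrier gene Slc25a4 had 192 and 300.4 FPKM, 1.57-fold higher, and Tspo, an outer membrane protein gene, 151 and 275 FPKM, 1.81-fold higher but with a log2 ratio of 0.36 after removal of the trend. Dnm1l, which encodes the fission GTPase DRP1, had 23.6 and 15.0 FPKM, 1.54-fold lower, and the fusion gene Opa1 had 7.63 and 4.97 FPKM, a log2 ratio of -0.53.

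Among 28 genes that act on the member proteins 4 were at least 1.5-fold higher and 5 lower, beside 10.8% and 13.4% of all genes. Their median log2 ratio was -0.19. Casp8, whose product cleaves BID, had 6.95 FPKM in control cells and 14.7 FPKM in antagomir cells, 1.98-fold higher, opposite in direction to Bid. Dynll2, a dynein light chain known to hold the BH3-only protein BMF, was 2.41-fold higher, with 15.6 and 38.9 FPKM. Ppp3ca, the catalytic subunit of calcineurin, a phosphatase of BAD, had 55.7 and 32.9 FPKM, 1.67-fold lower. Tmbim6, which encodes Bax inhibitor 1, had 235 and 139 FPKM, 1.68-fold lower.

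Of 19 transcription factors and cofactors known to act on family genes 2 were at least 1.5-fold higher and 5 lower. Of all genes 10.8% were higher and 13.4% lower. The median log2 ratio of the list was -0.32. Trp53, which encodes p53, an activator of Bax and Bbc3, had 47.4 FPKM in control cells and 28.7 FPKM in antagomir cells, 1.63-fold lower. Ddit3, which encodes CHOP, a factor known to lower Bcl2 and raise Bcl2l11, had 609 and 117 FPKM, 5.16-fold lower, and its exons share 186 bases with 3 other annotated genes. Myc was 2.49-fold lower, with 76.99 and 30.4 FPKM. E2f1, with 12.1 and 22.1 FPKM, was 1.76-fold higher, and Creb1 was 2.36-fold higher, with 0.617 and 2.81 FPKM. Egr1 had 4.14 and 5.98 FPKM, a log2 ratio of 0.44.

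Among 17 p53 targets outside the family, 2 were at least 1.5-fold higher and 9 lower, beside 10.8% and 13.4% of all genes, with a median log2 ratio of -0.62. Mdm2, 1.62-fold lower, is counted both here and among the lower transcription factors and cofactors. Over all 107 pathway genes outside the 10 members, 14 were higher and 25 lower by this limit, with a median of -0.15. Inside the limit were 6 of the 17 p53 targets. Their log2 ratios were -0.20 for Cdkn1a, -0.21 for Zmat3, -0.18 for Fas, -0.12 for Tigar, 0.04 for Ccng1 and 0.17 for Aen. Any part of p53 in the values of Bbc3 and Bax was not tested. Gadd45a (241 and 96.2 FPKM) was 2.49-fold lower, Sesn2 (25.004 and 9.49 FPKM) 2.48-fold lower and Plk3 (14.8 and 5.70 FPKM) 2.36-fold lower. Sesn1 was 1.51-fold higher, with 5.86 and 9.35 FPKM. Phlda3 had 69.7 and 143 FPKM, 2.03-fold higher, and 0.61 on the log2 scale once the trend was taken out.

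BCL2 family proteins also act at the endoplasmic reticulum, where they bind calcium release channels. Of 13 genes on that list 1 was at least 1.5-fold higher and 7 lower, again beside 10.8% and 13.4% of all genes, with a median log2 ratio of -0.65. Atp2a2, the calcium pump SERCA2 of this membrane, had 67.5 FPKM in control cells and 20.02 FPKM in antagomir cells, 3.26-fold lower. Grina, a relative of Bax inhibitor 1, had 111 and 43.9 FPKM, 2.50-fold lower. Fis1, a mitochondrial fission protein gene that pairs with Bcap31 between both organelles, was 1.87-fold higher, with 58.8 and 111 FPKM and a log2 ratio of 0.53 after removal of the trend, and Bcap31 had 144 and 194 FPKM, a log2 ratio of 0.42. Tmbim6 is on this list too.

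**Figure D4:**
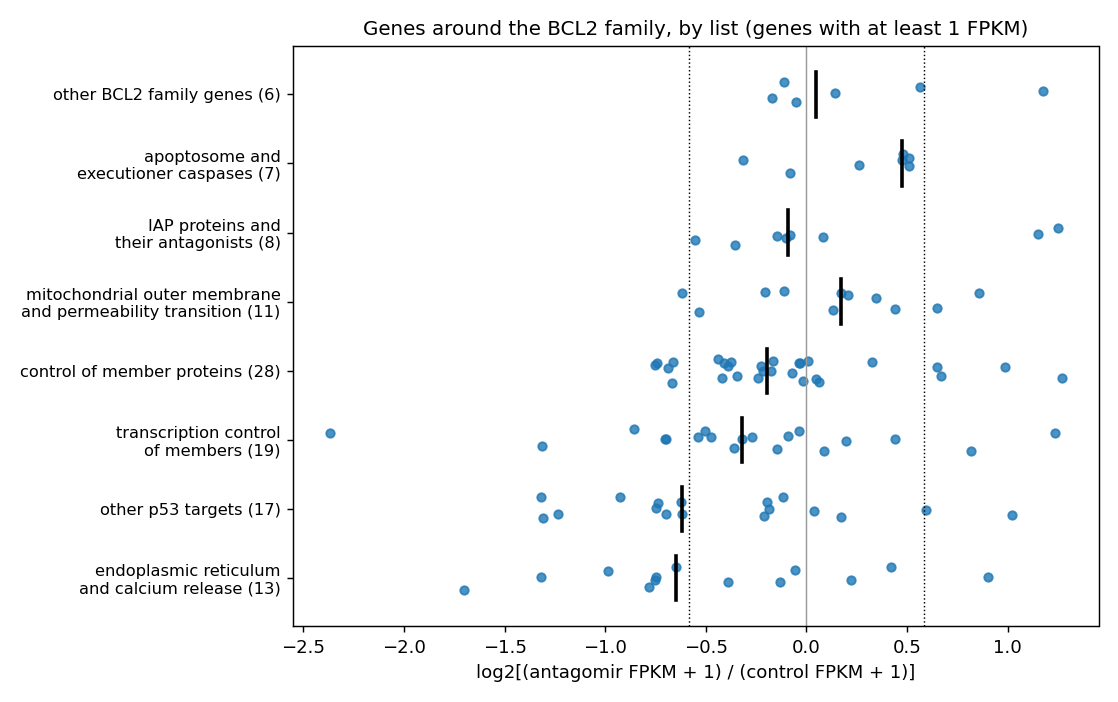
Log2 ratio of each gene that reached 1 FPKM in either library, for 8 lists of genes around the family, with the number of genes in brackets, black bars at list medians and dotted lines at 1.5-fold. The p53 target and endoplasmic reticulum lists have medians of -0.62 and -0.65, and no apoptosome gene lies beyond either line on this scale.

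**Figure D5:**
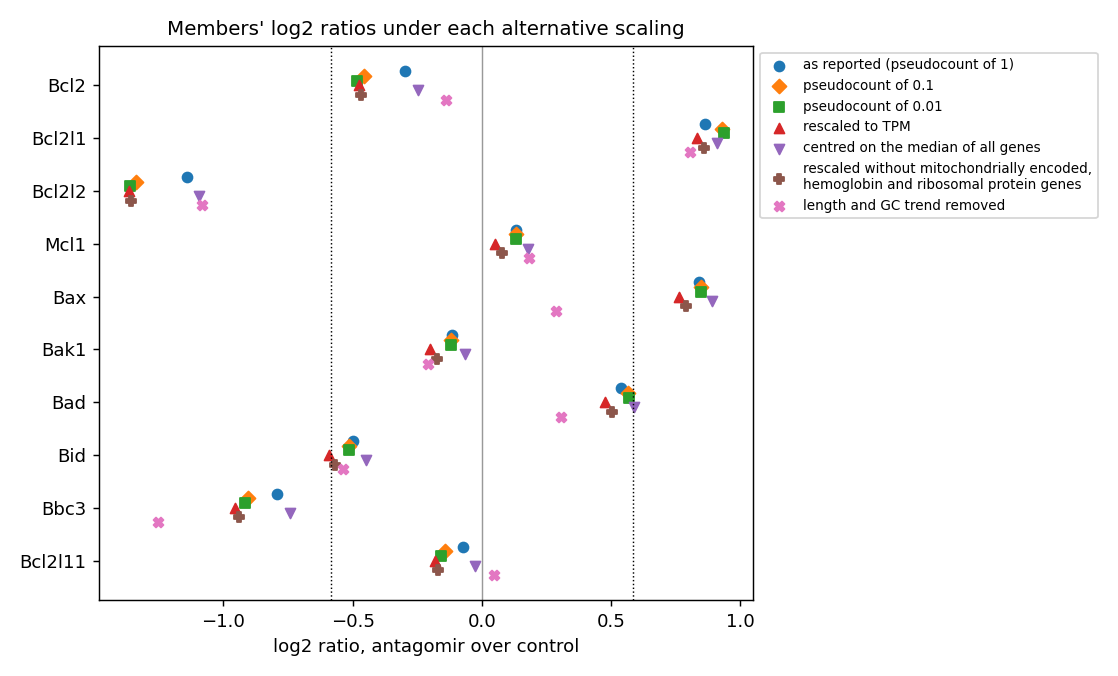
Log2 ratio of each member as reported and under 6 other scalings, with dotted lines at 1.5-fold. Bcl2l1, Bcl2l2 and Bbc3 stay beyond their line under each, Bax comes inside it with the length and GC trend removed, and Bcl2l11 crosses 0 there.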

How the data were processed

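Values are FPKM per gene as deposited. The submitters' processing notes name cutadapt, HISAT2, StringTie 1.3.3 and GRCm38. They do not give the annotation release, settings or strand use. All 10992 rows are protein-coding genes, and 10 repeated symbols were summed, leaving 10982 genes. FPKM times transcript length showed no whole-read steps (16.0% and 18.5% of 200 low genes within 0.05 of a whole number), so depth is unknown. Log2 ratios used a pseudocount of 1, and counts used genes reaching 1 FPKM in either library at a 1.5-fold limit. Lengths, GC content and exon overlaps came from GENCODE M21. The trend over both was removed by least squares on cubic polynomials, tested on simulated data. The lists were 11 of the family and its pathway and 6 of markers. Members and lists were chosen with earlier results of these data known. Named were the members, all further family genes with values, up to 2 genes at either end of each list reaching 5 FPKM, those 2-fold apart, and Casp9, Apaf1, Cycs and Trp53. An item of the lists is not reported here. Outside this rule are overlap partners, marker genes, Mdm2 and the p53 targets inside the limit. Alternatives were other pseudocounts, minimums and limits, TPM, median centring, rescaling without abundant families, trend removal and leaving out overlapping members. Python 3.11.15, pandas 2.3.3, numpy 2.4.6 and matplotlib 3.10.9 were used.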

Additional observations from a re-analysis of the deposited data

How the results depend on the processing

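No paired analysis was possible because each group had 1 library. Of 60 member log2 ratios under 6 other scalings 59 kept their direction, the exception being Bcl2l11 at 0.046 with the length and GC trend removed. The median log2 ratio of the members, -0.11 as reported, was -0.12 with a pseudocount of 0.1 or 0.01, -0.19 as TPM, -0.17 after scaling to the sum without mitochondrial, hemoglobin and ribosomal protein genes, -0.066 after centring, -0.14 with the trend removed and -0.094 with no minimum. It turned to 0.0088 at a minimum of 5 FPKM, which leaves out Bcl2, and to 0.13 over the 3 counted members whose exons overlap no other gene, so its sign depends on these choices. The count of members at least 1.5-fold higher, 2 as reported, was 1 with the trend removed (Bax lost) and 1 without overlapping members. That of lower members was 1 without overlapping members. At a 2-fold limit none was higher and 1, Bcl2l2, was lower (0 and 1), beside 2.88% and 3.79% of all genes. As TPM, Bid made the lower count 3, where 19.5% of all genes were lower. After centring, Bad made the higher count 3, where 12.3% of all genes were higher. With the trend removed 7.83% of all genes were higher. As TPM and after scaling to the sum without abundant families, Bcl2l11 reached the minimum. Those counts and medians, and the median with no minimum, are therefore over 10 members. The ratio of restraining to pro-death FPKM in the antagomir library over that in the control was 0.824 as reported, 0.833 without Mcl1, 0.702 over Bax and Bak1 alone, and 0.760 with Gm20521 added to Bcl2l2. It reversed to 1.24 without Bax and to 2.16 without overlapping members, which leaves out Bax too. The calculations with Gm20521 and without Bax were chosen after seeing the data. Scaling shifts the median of all genes from -0.05 to -0.12 at most. With depth unknown, the counting error of low values such as those of Bcl2 and Bcl2l11 cannot be given.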
